A study of Mus musculus with 10 samples.

Results

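Inhibitory lymphocyte receptors and a few of their direct partners, 10 genes in all, were followed: Lag3, Havcr2 (TIM-3), Tigit, Cd96, Btla, Cd160, Vsir (VISTA) and Cd244 (2B4), the TIM-3 ligand gene Lgals9 (galectin-9), and Cd226, the activating counterpart of Tigit and Cd96. They were chosen by symbol and function, by a rule that uses no measured value but with earlier results of these data known, and all 10 had a row among the 22329 genes of the table. The samples were 10 subcutaneous B16F10 tumours, a mouse melanoma line, grown in C57BL6/J mice and taken 7 days after 1 intratumoral injection of 80 µg mRNA. In the 5 control tumours the mRNA encoded luciferase (libraries 1 to 5). In the 5 cytokine tumours it was a mixture of 4 mRNAs at 20 µg each, encoding murine single chain IL-12, IL-15sushi, GM-CSF and IFNalpha (libraries 6 to 10). No untreated tumour was part of the comparison, and the labels give neither the age nor the sex of the mice.

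Inhibitory receptors hold back T cells and NK cells after activation, and several of them are targets of cancer immunotherapy. LAG3 binds MHC class II molecules, and TIM-3, which T cells as well as macrophages and dendritic cells carry, binds galectin-9 among other ligands. TIGIT, CD96 and the activating receptor CD226 compete for PVR (CD155) and nectins on the cells they meet. BTLA and CD160 share the ligand HVEM, VISTA is made by myeloid cells and T cells, and 2B4 is a SLAM family receptor that binds CD48.

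Values are TPM, the transcript abundance deposited by the authors, a share of each library's RNA corrected for transcript length and scaled to the same total in each library. Between 11513 and 12984 genes had a TPM of at least 1 per library. Library 7 stood apart: its 5 melanocyte genes (Tyrp1, Dct, Pmel, Tyr and Mlana) summed to 15.7 TPM, against 1965 to 15400 TPM in the control tumours, and it had the highest T cell and macrophage gene levels. Library 10 had the lowest of its group for both. The mean log2(TPM + 1) of 5 T cell genes (Cd3d, Cd3e, Cd3g, Cd5 and Cd6) was 0.14 to 1.30 in control tumours and 6.86, 5.52, 4.53, 3.45 and 2.16 in libraries 7, 6, 8, 9 and 10. Of 5 macrophage genes (Csf1r, Cd68, Adgre1, Fcgr1 and Itgam) it was 3.16 to 5.22 in control and 5.51 to 8.81 in cytokine tumours. In bulk tumours, fewer cells of a type and less RNA per cell cannot be told apart.

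RefSeq start windows (build GRCm38.p6) were at hand for 8 of the 10 genes, and in each the 250 bases before the start were searched on both strands for motifs of interferon signalling. The gamma-activated sequence, spelled TTCNNNGAA, was in 2 of 9 windows (Cd96 and 1 of 2 Cd160 starts), and 7.02% of all 32851 windows held it. The core of the interferon-stimulated response element, spelled GAAANNGAAA, was in 1 of 9 windows (Lgals9), and 2.98% of all windows held it. A check of the end of the Tigit start window against annotated Tigit transcripts (GENCODE vM21) found no match. Whether its 250 bases lie before a Tigit start is therefore not established, and they are counted among the 9 windows. The motifs do not overlap in these windows. A match is a description of letters, and windows without one are not informative about any factor. The Lgals9 and Cd96 windows are printed because they hold a match upstream of a start whose gene rose, with the matched bases in capitals. The Lgals9 match lies on the opposite strand and begins 55 bases before the start; the Cd96 match begins 79 bases before it. Lgals9 is at chr11:78984925-78985174, minus strand, and Cd96 at chr16:46120249-46120498, minus strand, both written 5′ to 3′ along the gene.
Lgals9: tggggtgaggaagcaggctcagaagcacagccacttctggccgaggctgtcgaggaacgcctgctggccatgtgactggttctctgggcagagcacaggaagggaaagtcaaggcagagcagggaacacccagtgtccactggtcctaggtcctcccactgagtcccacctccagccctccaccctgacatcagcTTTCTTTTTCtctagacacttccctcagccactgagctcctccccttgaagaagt
Cd96: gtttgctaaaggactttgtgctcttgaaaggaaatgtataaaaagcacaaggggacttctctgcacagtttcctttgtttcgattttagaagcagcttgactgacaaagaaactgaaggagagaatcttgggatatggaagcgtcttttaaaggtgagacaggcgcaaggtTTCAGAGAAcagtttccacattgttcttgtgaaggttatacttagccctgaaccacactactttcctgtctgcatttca

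Levels of 9 of the 10 genes were higher 7 days after cytokine mRNA than after luciferase mRNA, and Cd160 was too low to test. On the log2(TPM + 1) scale the changes were led by Cd226, Vsir, Havcr2, Cd96 and Lag3. That order depended on the pseudocount, the value added to TPM. With 0.1 the largest changes were those of Cd226 (5.96), Tigit (4.51) and Cd96 (4.15). With 5 they were those of Vsir (2.63), Havcr2 (2.13) and Cd226 (1.85). A gene entered the test if 5 or more libraries reached 1 TPM, which 12497 genes did. The median change of the 9 was 2.65 on the log2(TPM + 1) scale, against -0.18 over all genes tested. Cd160 was below that filter, and Cd96 and Btla passed it through the cytokine libraries alone, so that they had to differ. Tigit and Cd226 passed with 1 control and 4 cytokine libraries each. With limma and an adjusted p under 0.05, 9 of the 9 tested genes rose, in a comparison in which 7.41% of all tested genes were called higher and 3.02% lower. The groups did not overlap for 4 of them (Havcr2, Cd96, Btla and Cd244), where 5.45% of all tested genes were higher and 3.78% lower without overlap. Because of the filter neither count is support for the receptors as a group. The adjusted p-values lay between 0.0127 and 0.0488, near the threshold, and many calls depended on single libraries. The count of called genes was 7, 3, 6, 1 and 2 without control libraries 1, 2, 3, 4 and 5. It was 1, 4, 1, 5 and 9 without cytokine libraries 6, 7, 8, 9 and 10. Of all tested genes 10.4% were called either way with every library in. That share was 7.36%, 4.62%, 5.44%, 4.43% and 4.39% without libraries 1 to 5. Without libraries 6 to 10 it was 2.94%, 6.88%, 3.94%, 5.41% and 25.9%, so the counts stand beside a share that also moved. Without libraries 6 and 7 together the count was 0, and 0.16% of all tested genes were called. There 9 of 9 members and 2476 of 12497 genes had an unadjusted limma p under 0.05. All 9 log2 changes of the members kept their sign, from 0.79 in Lgals9 to 2.42 in Vsir.

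**Figure D1:**
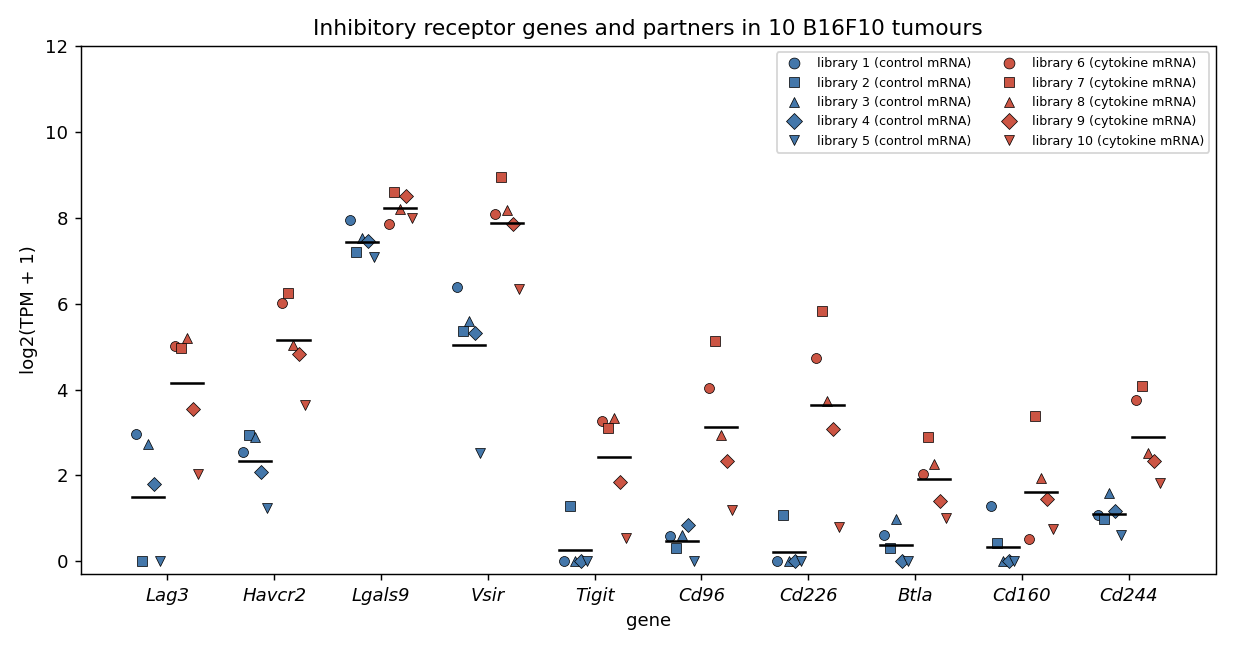
Level of each gene as log2(TPM + 1) in the 10 tumours, with blue symbols for control mRNA, red symbols for cytokine mRNA, 1 symbol shape per library within a group and a black bar at the group mean. The red points of Havcr2, Cd96, Btla and Cd244 all lie above the blue ones, and library 10 is the lowest red point for 8 of the 10 genes.

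Lag3, whose product restrains T cells that meet MHC class II, had control TPM of 6.76, 0, 5.67, 2.51 and 0 in libraries 1 to 5. In libraries 6 to 10 it was at 31.5, 30.2, 36.0, 10.6 and 3.08 TPM. Library 10 lay inside the control range, and the other 4 cytokine tumours lay above it. The mean went from 2.99 ± 3.14 to 22.3 ± 14.5 TPM (SD, n = 5 per group), a change of 2.65 ± 0.77 (SE) on the log2(TPM + 1) scale with a limma adjusted p of 0.0488. The call was kept without library 1 or 10 and lost without any 1 of libraries 2 to 9, with adjusted p-values up to 0.121. The change itself ranged from 2.28 to 3.18 over these fits. Levels of 0 in 2 control tumours mean only that the gene is listed at 0, since TPM carries no depth.

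Havcr2 encodes TIM-3, an inhibitory receptor of T cells and myeloid cells. Its control TPM was 4.84, 6.65, 6.42, 3.20 and 1.37 in libraries 1 to 5. The cytokine TPM was 64.2, 75.2, 32.1, 27.6 and 11.5 in libraries 6 to 10. Every cytokine tumour was above every control tumour, including library 10. The change of log2(TPM + 1) was 2.82 ± 0.50 (SE; limma adjusted p = 0.0127), and Havcr2 was the gene whose call held with each of the 10 libraries left out in turn, with adjusted p-values from 0.000899 to 0.0427. Without libraries 6 and 7 together the change was 2.17 (adjusted p = 0.0706).

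Lgals9, the gene of galectin-9, was the most abundant of the 10 genes in both groups by median. It changed least among those tested on the log2(TPM + 1) scale. With a pseudocount of 5 Btla changed less (0.58, against 0.78 in Lgals9). It had control TPM of 245, 145, 185, 174 and 135, and cytokine TPM of 232, 384, 292, 365 and 253. The groups overlapped, since control library 1 lay above cytokine library 6. The mean went from 177 ± 43.0 to 305 ± 67.3 TPM (SD, n = 5 per group), and log2(TPM + 1) changed by 0.79 ± 0.23 (SE; limma adjusted p = 0.0477). The call was kept without library 1 or 10 and lost without any 1 of libraries 2 to 9, with adjusted p-values up to 0.114. Receptor and ligand therefore changed by different amounts. The difference Havcr2 minus Lgals9 of log2(TPM + 1) was -5.10 ± 0.64 in control and -3.07 ± 1.01 in cytokine tumours (SD, n = 5), a shift of 2.03 (exact 2-sided permutation p = 0.0159, adjusted over 3 gene pairs p = 0.0238). The shift lost its call without control library 1, 3, 4 or 5 (adjusted p = 0.0714, exact permutation, in each) and without libraries 6 and 7 together (1.38, adjusted p = 0.0804). With libraries 6 and 7 left out, too few tumours remain for this pair alone to pass the threshold after adjustment. Lgals9 remained above Havcr2 in every tumour.

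Vsir encodes VISTA, which restrains T cells and is prominent on myeloid cells. Its control TPM was 83.4, 40.2, 47.1, 38.6 and 4.77. The cytokine TPM was 271, 494, 291, 230 and 79.5. Library 10 lay just under control library 1, and control library 5 was far below its group. The mean went from 42.8 ± 28.0 to 273 ± 149 TPM (SD, n = 5 per group; 218 TPM without library 7), with a log2(TPM + 1) change of 2.85 ± 0.67 (SE; limma adjusted p = 0.0253). The call was lost without any 1 of libraries 2, 4, 6, 7, 8 and 9, where the adjusted p-values reached 0.0675. By median TPM Vsir was the second gene of the 10 in both groups, and in cytokine tumours it reached the level of Lgals9, which was higher than Vsir in 3 of 5 libraries.

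**Figure D2:**
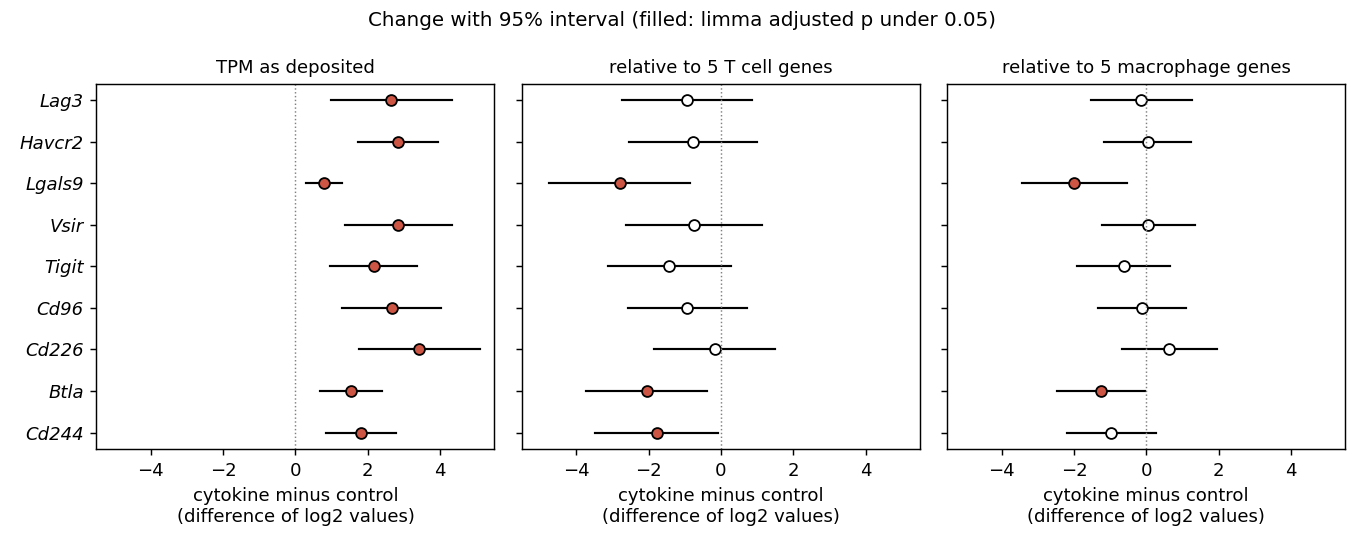
Difference between cytokine and control tumours (5 each) for the 9 tested genes, as log2(TPM + 1) and as the same values after subtracting the library's mean over 5 T cell or 5 macrophage genes; bars are limma's 95% intervals and filled points have an adjusted p under 0.05. All 9 intervals in the left panel lie above 0, while most in the other panels include it.

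The receptors of the nectin axis were near 0 in control tumours. Tigit, an inhibitory receptor of T cells and NK cells, was listed at 0 in control libraries 1, 3, 4 and 5 and at 1.43 TPM in library 2. In libraries 6 to 10 it was at 8.58, 7.62, 9.11, 2.62 and 0.464 TPM. Cd226, which activates the same cells, was likewise listed at 0 in control libraries 1, 3, 4 and 5 and at 1.11 TPM in library 2. Its cytokine values were larger, at 25.7, 55.7, 12.3, 7.43 and 0.744 TPM. For both genes library 10 lay below control library 2 and the other 4 cytokine tumours lay above every control tumour. Tigit changed by 2.17 ± 0.55 (SE) in log2(TPM + 1), with a limma adjusted p of 0.0318, and Cd226 by 3.42 ± 0.76, with 0.0208. The Cd226 change was the largest among the 9 genes on this scale, though not with a pseudocount of 5. Tigit lost its call without any 1 of libraries 1 and 3 to 9 (adjusted p up to 0.0875) and Cd226 without library 4, 5, 6 or 8 (up to 0.0612). The Cd226 mean of 20.4 TPM in cytokine tumours was 11.5 TPM without library 7.

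Cd96, which binds PVR like the others and is mainly inhibitory in mouse NK cells, was at 0 to 0.790 TPM in the control tumours. It was at 15.4, 34.0, 6.74, 4.07 and 1.28 TPM in libraries 6 to 10. Cd96 passed the filter through the cytokine libraries alone, so no control value could reach the lowest cytokine value. The change was 2.66 ± 0.62 (SE) in log2(TPM + 1) with a limma adjusted p of 0.0243, and the call was lost without library 2, 4, 5, 6 or 8 (adjusted p up to 0.0692). Without library 7 the cytokine mean fell from 12.3 to 6.88 TPM.

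Within cytokine tumours the activating gene Cd226 stood above Tigit in all 5 libraries and above Cd96 in 4, with library 10 as the exception. The difference Tigit minus Cd226 in log2(TPM + 1) was 0, 0.20, 0, 0 and 0 in control libraries and -1.48, -2.72, -0.39, -1.22 and -0.25 in libraries 6 to 10. It shifted by -1.25 between the groups (exact 2-sided permutation p = 0.00794, the smallest that 5 against 5 tumours can give, and 0.0238 adjusted over 3 pairs). Both genes were listed at 0 in 4 control tumours, so the control difference holds no information on their ratio there. The call was lost without any 1 control library (adjusted p of 0.0556 without library 2 and 0.0714 without each other one, exact permutation). Without libraries 6 and 7 together the shift was -0.66 (exact permutation adjusted p = 0.0536). With so few tumours left, this pair alone could not pass the threshold after adjustment, so that fit cannot decide the call. Cd96 minus Cd226 shifted by -0.76 (exact permutation p = 0.0794, adjusted 0.0794), which missed the threshold. With a pseudocount of 5, without control library 2 and without library 10 it passed, with exact permutation adjusted p-values of 0.0238, 0.0357 and 0.0397.

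**Figure D3:**
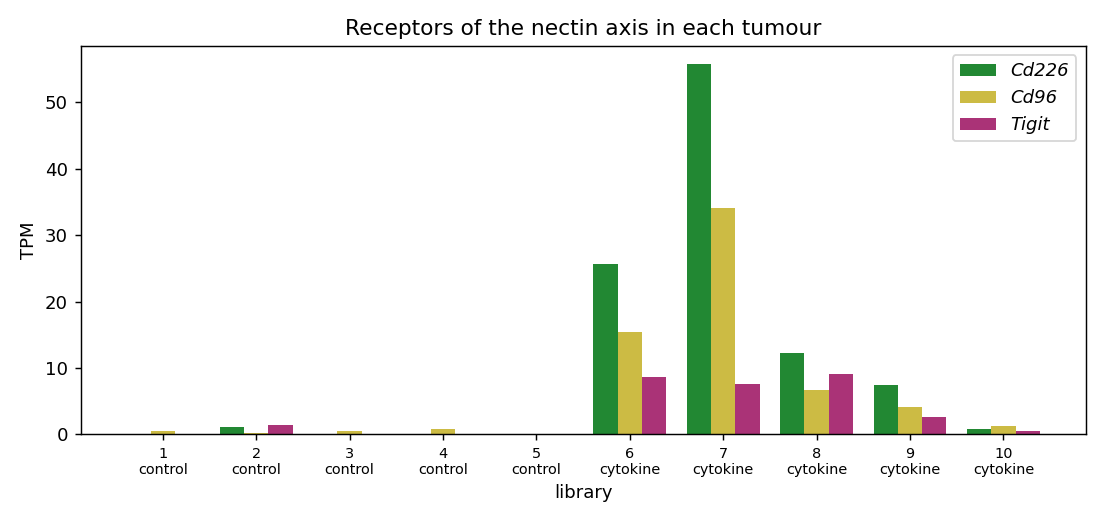
TPM of Cd226, Cd96 and Tigit as bars for each of the 10 libraries, on a linear axis from 0. Cd226 is the tallest bar in libraries 6 to 9, reaching 55.7 TPM in library 7, while the control bars do not exceed 1.43 TPM.

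Other genes of this receptor axis were mostly not called. Of 6 tested among 8 listed, Pvrig, a further inhibitory receptor of the axis, rose from 0.405 ± 0.555 to 4.08 ± 2.63 TPM (SD, n = 5; limma adjusted p = 0.0359), and none fell. Pvr, the shared ligand, was at 60.9 ± 7.97 and 64.8 ± 20.8 TPM, with a log2(TPM + 1) change of 0.04 ± 0.23 (SE; limma adjusted p = 0.910). The ligand gene Nectin2 was at 9.89 ± 2.89 and 9.48 ± 4.50 TPM (limma adjusted p = 0.817). Nectin1 was at 0.966 ± 0.469 and 3.85 ± 2.05 TPM, a change of 1.21 ± 0.38 (SE; limma adjusted p = 0.0645), and Nectin3 at 32.6 ± 13.4 and 21.1 ± 8.77 TPM (0.260). The list's median change was -0.04, against -0.18 over all genes tested, of which 7.41% were called higher and 3.02% lower. Pvr and the nectin genes were named after their values were seen.

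Btla, the HVEM receptor of B and T cells, was at 0 to 0.967 TPM in control tumours and at 3.10, 6.43, 3.79, 1.66 and 1.01 TPM in libraries 6 to 10. The groups did not overlap, by a margin of less than 0.1 TPM between control library 3 and library 10. The filter fixed this, since Btla passed it through the cytokine libraries alone. The change was 1.54 ± 0.39 (SE) in log2(TPM + 1), with a limma adjusted p of 0.0321 that rose to between 0.0627 and 0.0809 without library 2, 4, 5, 6, 7 or 8. Cd160, also a receptor of HVEM and found on NK cells and CD8 T cells, was not tested with the filter. It was at 1.43 and 0.341 TPM in control libraries 1 and 2 and listed at 0 in the other 3. Its cytokine values were 0.428, 9.37, 2.81, 1.74 and 0.689 TPM, 3 of them above every control value. Without the filter its change was 1.26 ± 0.51 (SE; limma adjusted p = 0.164). Tnfrsf14, the gene of HVEM, rose from 39.4 ± 24.5 to 127 ± 68.6 TPM (limma adjusted p = 0.0454), 1 of 2 tested genes of its list of 4, and none fell. Of all tested genes 7.41% were called higher and 3.02% lower.

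Cd244, the gene of 2B4 on NK cells and CD8 T cells, was at 1.12, 0.973, 2.03, 1.26 and 0.542 TPM in libraries 1 to 5. It was at 12.5, 16.1, 4.75, 4.02 and 2.55 TPM in libraries 6 to 10, all above the control tumours. The change was 1.81 ± 0.44 (SE) in log2(TPM + 1), with a limma adjusted p of 0.0276 and a call lost without library 1, 2, 4, 5, 6 or 8 (adjusted p up to 0.0766). Of the list of its ligand and relatives, 7 of 8 tested genes rose and none fell, with a median change of 2.95. Over all tested genes 7.41% were called higher and 3.02% lower, with a median change of -0.18. Slamf8, a SLAM relative of myeloid cells, rose from 1.62 ± 1.78 to 40.7 ± 19.8 TPM (limma adjusted p = 0.00713). Slamf7, a receptor of NK cells, activated T cells and macrophages, rose from 6.52 ± 3.47 to 127 ± 82.0 TPM (limma adjusted p = 0.0123), and Cd2, a T cell and NK cell adhesion receptor, from 2.76 ± 1.82 to 78.7 ± 66.5 TPM (0.0308). Cd48, the 2B4 ligand itself, was at 4.47 ± 2.17 and 56.4 ± 70.1 TPM (25.9 TPM in cytokine tumours without library 7), with a change of 2.70 ± 0.66 (SE; limma adjusted p = 0.0277).

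Among ligands of LAG3, all 4 tested of 6 listed genes rose, with a median change of 4.05. For this and the next lists, 7.41% of all tested genes were called higher and 3.02% lower. The MHC class II chain gene H2-Ab1 changed by 5.46 ± 1.14 (SE) in log2(TPM + 1), with a limma adjusted p of 0.0176, H2-Aa by 4.19 ± 0.81 (0.0149) and H2-Eb1 by 3.91 ± 1.02 (0.0347). Fgl1, a soluble LAG3 ligand made mainly by liver, was at 0.782 ± 1.17 and 0.356 ± 0.393 TPM and was below the filter. Of the TIM family and the reported partners of TIM-3 and VISTA, 1 of 6 tested genes rose and none fell, with a median change of -0.66. That gene was Selplg, encoding the adhesion molecule PSGL-1, which went from 24.6 ± 14.7 to 144 ± 99.6 TPM (limma adjusted p = 0.0438). Of 6 tested signalling genes used by these receptors' tails, Inpp5d, encoding the phosphatase SHIP-1, rose from 15.2 ± 6.02 to 76.6 ± 29.3 TPM (limma adjusted p = 0.00961), and none fell. Sh2d1a, encoding the 2B4 adaptor SAP, was at 0.215 ± 0.480 and 2.16 ± 2.76 TPM (1.08 TPM in cytokine tumours without library 7) and below the filter.

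By median TPM the control order was Lgals9, Vsir, Havcr2, Lag3, Cd244, Cd96 and Btla, with Tigit, Cd226 and Cd160 at a median of 0. Only Lgals9 and Vsir were separated without overlap of their ranges; every other pair of neighbours in that order overlapped. In cytokine tumours the order was Lgals9, Vsir, Havcr2, Lag3, Cd226, Tigit, Cd96, Cd244, Btla and Cd160, with medians from 292 down to 1.74 TPM. There only Vsir, from 79.5 TPM, and Havcr2, up to 75.2 TPM, did not overlap among neighbours. Tigit exceeded Cd96 in 1 of 5 cytokine libraries although its median was higher, so their order rests on the summary chosen.

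The libraries ranked alike for most of the genes. Among the cytokine tumours 8 of the 10 genes were highest in library 7 and 8 were lowest in library 10. For Havcr2, Cd96, Cd226 and Cd244 the order was 7, 6, 8, 9 and 10, which was also the order of the T cell and the macrophage gene levels. Lag3 and Tigit differed from these: both were highest in library 8, followed by 6, 7, 9 and 10. Lgals9 and Cd160 were lowest in library 6.

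**Figure D4:**
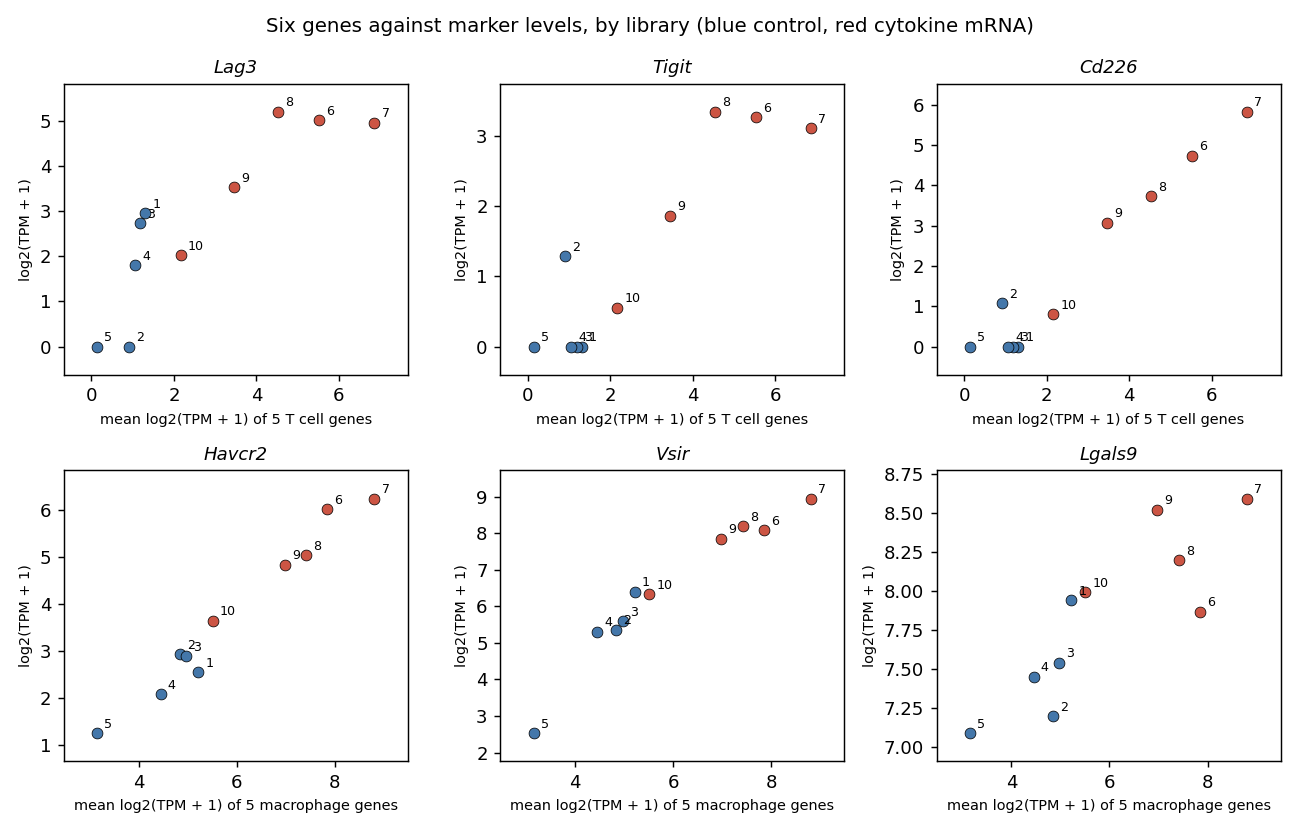
log2(TPM + 1) of Lag3, Tigit and Cd226 against the mean of 5 T cell genes, and of Havcr2, Vsir and Lgals9 against the mean of 5 macrophage genes, with each point a library, numbered, blue for control and red for cytokine mRNA. Cd226 continues to climb to library 7, while Lag3 and Tigit are no higher in library 7 than in libraries 6 and 8.

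Levels were next set against T cell RNA, by subtracting each library's mean log2(TPM + 1) over the 5 T cell genes. That mean was 0.92 ± 0.46 in control and 4.50 ± 1.82 in cytokine tumours (SD, n = 5), and 3 of the 5 genes passed the filter, all of them called higher, Cd6 having passed it through the cytokine libraries alone. Because the reference rose so much, 93.7% of all tested genes were lower relative to it (limma, adjusted p under 0.05) and 0.016% higher, so a lower value says little about a member. None of the 9 genes was higher. Lgals9, Btla and Cd244 were lower, with changes of -2.80 ± 0.96, -2.04 ± 0.83 and -1.78 ± 0.84 (SE). Their limma adjusted p-values were 0.00690, 0.0198 and 0.0438. Every cytokine tumour lay below every control tumour for 4 of the 9 (these and Cd96), as it did for 81.5% of all tested genes. Without control library 3 or 5 only Lgals9 was lower, and Cd244 kept its call without library 9 or 10 and lost it without any 1 of the other 8 (adjusted p up to 0.102). Btla, listed at 0 in 2 control tumours, lost its call with a pseudocount of 0.1 (-1.74, limma adjusted p = 0.177). Lgals9 lost its call with a pseudocount of 5 (-1.60, limma adjusted p = 0.0565). Cd226 and Tigit were listed at 0 in 4 control tumours, where their relative value is only the T cell mean with its sign turned, so the control side holds no measured ratio for them. Cd226 changed by -0.17 relative to the T cell genes (95% interval -1.84 to 1.51), with a sign that turned with a pseudocount of 0.1 (0.998) and without control library 2 (0.0506). For Cd96 the change was -0.93 (-2.57 to 0.72), for Lag3 -0.94 (-2.74 to 0.87) and for Tigit -1.42 (-3.11 to 0.27). For Havcr2 it was -0.76 (-2.54 to 1.01) and for Vsir -0.74 (-2.61 to 1.13). These intervals leave room for shifts of several-fold either way or down. Since limma draws each gene's spread toward that of all tested genes, an interval can be wider than the gene's own spread. Cd96 was at -0.44 ± 0.25 in control and -1.37 ± 0.32 in cytokine tumours (SD, n = 5). With an exact rank test Cd96 was called lower (adjusted p = 0.00974), where 93.6% of all tested genes were called. A missed limma threshold does not show that receptor and T cell genes moved alike.

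In library 7, which had the most T cell RNA, 8 of the 10 genes were lowest relative to it among the cytokine tumours, all but Cd226 and Cd160. The same T cell mean was subtracted from every gene and was largest in library 7. Any gene that rose there by less than that mean is low by this measure, and the share of all tested genes was not counted. Lag3 minus the T cell mean was -1.90 in library 7 and -0.50, 0.68, 0.09 and -0.13 in libraries 6, 8, 9 and 10. Tigit minus the T cell mean was -3.75 in library 7 and -2.26, -1.19, -1.59 and -1.61 in the others. For Cd226 the same quantity was -1.04 in library 7 and -0.78, -0.80, -0.37 and -1.36 in the others, so library 7 was within the spread of its group. Library 7 also stood apart in its melanocyte genes, and the part this plays was not tested.

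Relative to the 5 macrophage genes, whose mean was 4.53 ± 0.81 in control and 7.31 ± 1.21 in cytokine tumours (SD, n = 5) and all of which were called higher, 91.4% of tested genes were lower and 0.216% higher. Havcr2 was at -2.19 ± 0.33 and -2.15 ± 0.32 (SD, n = 5), a change of 0.04 with a 95% interval of -1.17 to 1.25 (limma adjusted p = 0.951). Vsir was at 0.51 ± 0.69 and 0.57 ± 0.35, a change of 0.06 with an interval of -1.24 to 1.36 (limma adjusted p = 0.928). The sign of Havcr2 turned without library 1, 4, 6 or 10 (range with 1 library left out -0.082 to 0.14), and that of Vsir without library 5, 9 or 10 (-0.22 to 0.23). Changes were also near 0 for Cd96 (-0.13, interval -1.34 to 1.09) and Lag3 (-0.13, -1.52 to 1.25). A change near 0 by this measure was therefore not particular to Havcr2 and Vsir. Tigit (-0.62), Cd226 (0.63) and Cd244 (-0.97) were not called either. None of the 9 genes was separated between the groups by this measure, while 61.9% of all tested genes were lower without overlap. Lgals9 was lower by this measure, with a change of -1.995 ± 0.70 (SE; limma adjusted p = 0.0114), a call lost without libraries 6 and 7 together (-1.31, adjusted p = 0.0891). Btla was also called lower, with a change of -1.24 ± 0.58 (SE; limma adjusted p = 0.0495). That call held without library 10 but was lost without any 1 of the other 9, with changes from -1.36 to -0.995 in those 9 fits.

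Markers of several other cell types, though not of B cells or melanocytes, also included called genes. Beside these counts, 7.41% of all tested genes were called higher and 3.02% lower. The 2 CD8 genes Cd8a and Cd8b1 both rose and summed to 0 to 5.74 TPM in control and 7.52 to 262 TPM in cytokine tumours. The 5 NK genes summed to 0.147 to 2.86 and 5.27 to 59.9 TPM, and the 2 that were tested, Klre1 and Klra8, rose, with Klra8 listed at 0 in all control tumours. Both passed the filter through the cytokine libraries alone and so had to differ. Of 5 dendritic cell genes, 2 of 4 tested rose (Xcr1 and Siglech), with sums of 2.04 to 9.68 and 10.1 to 34.7 TPM. Both tested CD4 and regulatory T cell genes, Cd4 and Il2ra, rose, while Foxp3, picked out once its values were known, was too low to test at 0.679 ± 0.222 and 1.58 ± 0.647 TPM. Both tested neutrophil genes of 4, S100a8 and Csf3r, rose, with sums of 0.771 to 8.70 and 6.57 to 176 TPM. The 1 tested B cell gene, Cd79a, was at 1.32 ± 0.772 and 1.69 ± 1.83 TPM (limma adjusted p = 0.961), and Cd79b, below the filter, at 0.798 ± 0.393 and 4.87 ± 4.01 TPM. Of 5 melanocyte genes none was called, with Tyrp1 at 4659 ± 2380 and 3327 ± 3316 TPM and Dct at 3316 ± 1562 and 1795 ± 1394 TPM. Mitochondrial genes held 16.2% to 27.9% of TPM in control and 4.44% to 19.2% in cytokine tumours. The part of each of these in the receptor changes was not tested.

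**Figure D5:**
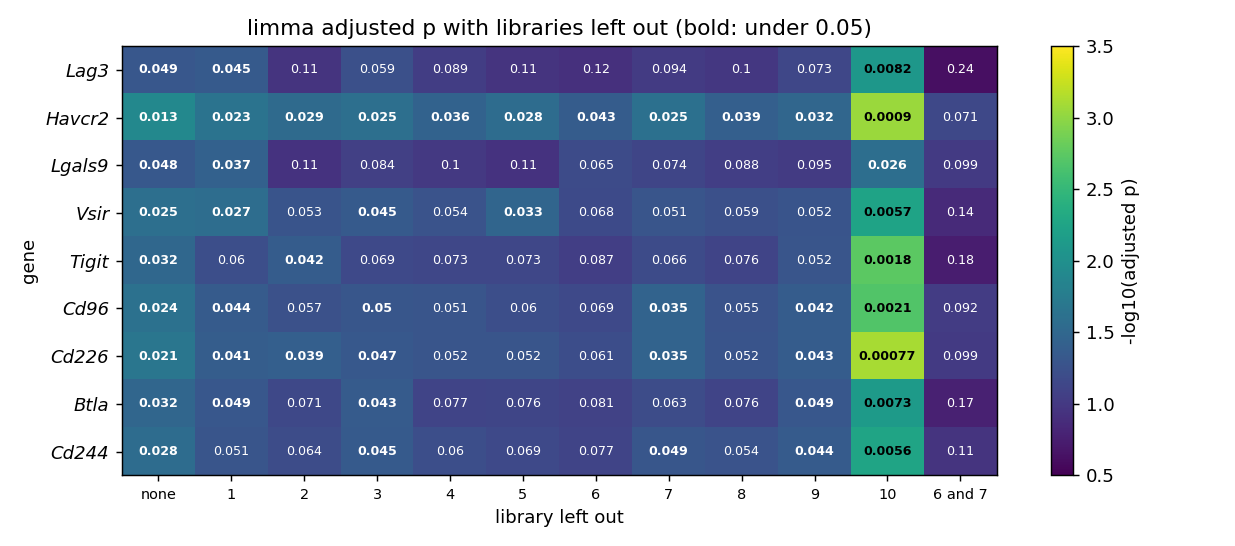
limma adjusted p of each of the 9 tested genes (rows) with no library left out, each of the 10 left out in turn, and libraries 6 and 7 left out together (columns); colour is -log10 of the adjusted p and bold marks values under 0.05. The Havcr2 row is bold in all columns but the last, and the column without library 10 holds the smallest values.

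Profiles were also matched across all 10 libraries. For each tested member the closest of 12102 other tested genes were those with the smallest root mean square difference of log2(TPM + 1) after centring each gene on its own mean. Closest to Havcr2 were Map3k8 (0.22), Zap70 (0.28) and Tmsb4x (0.28), against a median of 1.79 over all candidates. Closest to Lag3 were Bcl3 (0.44), Dnase1l3 (0.54) and Runx2 (0.54). Closest to Cd226 were Il2ra (0.29), Pilrb1 (0.30) and Il12rb2 (0.32), and to Cd96 Shisa5 (0.20), Basp1 (0.21) and Rgs19 (0.21). Tigit was closest to Stk26 (0.27), Mertk (0.37) and Apobr (0.39). Vsir was closest to Aoah (0.24), Rac2 (0.25) and C1qb (0.26), Cd244 to Ptpre (0.26), Grn (0.28) and Atp10a (0.29), and Btla to Pnpla7 (0.22), Nrg1 (0.22) and Parp8 (0.23). For Lgals9 they were Wrn (0.16), Zswim6 (0.17) and Baz2a (0.18). Among the members themselves the closest were Btla and Cd244 (0.40) and Havcr2 and Cd96 (0.53). Such distances are small for any genes that share the group difference and the library order, and they are descriptions without a test.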

How the data were processed

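Tumour mRNA was sequenced from stranded NuGEN libraries of polyA RNA, per the labels' protocols. The authors deposited 1 table of TPM, whose columns all have the same total. STAR and the build GRCh38, which is human although the gene symbols are mouse, come from the submitters' processing notes; the sources used here give neither counting program nor annotation, and no position from the table's build is printed. Depth is unknown from TPM, and intervals or limits that need counts were left out. Libraries were grouped by title. The labels do not state that each library is another mouse, so p-values measure the spread between these 10 samples, which may be technical.

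The 12497 of 22329 genes that reached 1 TPM in 5 or more libraries were fitted on log2(TPM + 1), a pseudocount of 1 that understates changes of low genes, by limma (version 3.58.1, R version 4.3.3, eBayes with trend, 2-sided). p-values were adjusted by Benjamini-Hochberg over every tested gene. The same fit was repeated after subtracting T cell or macrophage gene means. Fits with libraries left out kept the same gene set. Pairs of genes were compared by exact permutation.

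The 10 members, the gene lists and the naming rule were chosen with earlier results of these data known. Named are the members, per list up to 3 called genes of largest change (failing any, its 2 most abundant genes), and the 3 closest profiles per member. Cd48, Fgl1, Sh2d1a and neighbours on the chromosome were named outside this rule, with their values known. Promoter windows came from RefSeq (GRCm38.p6); Cd244 was matched there as Cd244a. Figures were drawn with matplotlib version 3.10.9.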

Additional observations from a re-analysis of the deposited data

Results flagged for a closer look

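Within each group of 5 tumours, the highest or the lowest value of log2(TPM + 1) was checked for a gap to its nearest neighbour that, as a part of the group's range, exceeded Dixon's 95% critical value. Of 20 groups (10 genes in each of 2 sets of tumours) 3 had such a gap, and for continuous values chance alone gives about 1 in 20. Where 4 of 5 values are 0 the gap is the whole range whatever the other value, so the count cannot be set against that rate. Tigit had a gap of 1 (the whole range) in the control tumours, because library 2 held 1.43 TPM and the other 4 were listed at 0. Cd226 had the same gap of 1 in the same library, at 1.11 TPM, with the other 4 listed at 0. Vsir had a gap of 0.718 in the control tumours, where library 5 held 4.77 TPM against 38.6 to 83.4 TPM in the others; library 5 also had the lowest T cell and macrophage gene levels of all 10 libraries.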

How the results depend on the processing

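No paired analysis was possible because no replicate number is shared between the groups. Of the 9 tested genes called higher, 2 were called with a filter at a TPM of 5, which left 4 of them to test, and 0 with an exact rank test adjusted over all genes, which called 0 genes (unadjusted p under 0.05 in 9 of 9 and in 2914 of 12497 genes). With each library left out the count was 1 to 9, without libraries 6 and 7 together it was 0, and without libraries 7 and 10 together, chosen after seeing the data, it was 9. Of all tested genes 2.94% to 25.9%, 0.16% and 20.9% were called in these fits. The count was 7 to 9 under the other settings, and where it was 7 in these the calls lost were Lag3 and Lgals9. Their limma adjusted p-values there reached 0.0812 and 0.0615. Both were also lost with the filter at a TPM of 5. Scaling moved the median change of all genes from -0.18 to -0.03 (median ratio), -0.28 (the 50 top genes removed) and -0.32 (mitochondrial and receptor segment genes removed), and no member's change in cytokine against control turned its sign under any setting. Relative to T cell genes 3 members were called, and the members called were lower in every setting run. Which they were moved with the pseudocount: Btla was not called at 0.1 and Lgals9 was not called at 5. The count was 1 with a filter at a TPM of 5, which left 4 members to test. It was 7 with library quality weights, 5 with the rank test and 6 with Cd3e alone as reference. Tigit and Cd96 were among those called in each of the last 3, Havcr2 and Vsir with the weights only, and Lag3 with Cd3e alone only. Of all tested genes 94.2%, 98.5%, 93.6% and 97.5% were called either way with the filter, the weights, the rank test and Cd3e alone. With each library left out the count was 1 to 3, where 91.2% to 95.4% of all tested genes were called. Relative to macrophage genes 2 were called, both lower. With a pseudocount of 0.1 it was also 2, Lgals9 lower and Cd226 higher. It was 5 with a pseudocount of 5, all lower, and 5 with library quality weights, 3 lower and 2 higher (Lag3 and Cd226). It was 1, Lgals9 lower, with a filter at a TPM of 5, quantile normalization, no variance trend, or rescaling without the 50 most abundant or the mitochondrial and receptor segment genes. It was 0 without libraries 6 and 7, and 1 to 2 with each library left out. Of all tested genes 86% to 95.5% were called either way relative to macrophage genes in these settings. The shift of Tigit minus Cd226 was -1.49 to -0.88 with each library left out and -0.66 without libraries 6 and 7. That of Cd96 minus Cd226 was -1.01 to -0.61, and -0.48 with a pseudocount of 5. That of Havcr2 minus Lgals9 was 1.72 to 2.35, and 1.38 without libraries 6 and 7. Relative to T cell genes the sign turned for Lag3 with library quality weights (0.16) and for Cd226 with a pseudocount of 0.1 (0.998), without libraries 7 and 10 (0.0505) and with single libraries left out (-0.32 to 0.0506). Relative to macrophage genes it turned for Havcr2 with a pseudocount of 5 (-0.38), library quality weights (-0.22) and single libraries left out (-0.0823 to 0.14), for Vsir with single libraries left out (-0.22 to 0.23), and for Btla with a pseudocount of 0.1 (0.34). The cause was not tested. Depth is unknown, so values near 0 carry an unknown counting error.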

Other observations

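The genes that flank the members on the chromosome were looked up by order in RefSeq (predicted genes left out), a choice made after values were seen. Of 20 neighbours 14 were tested, 4 rose and none fell, where 7.41% of all tested genes were called higher and 3.02% lower. Cd4, the T helper co-receptor gene next to Lag3, went from 1.06 ± 0.716 to 13.0 ± 9.23 TPM (SD, n = 5; limma adjusted p = 0.0278), while Ptms on the other side of Lag3 was at 408 ± 78.9 and 694 ± 438 TPM (0.227). Nos2, the inducible nitric oxide synthase gene next to Lgals9, went from 1.36 ± 0.925 to 78.6 ± 39.5 TPM, a log2(TPM + 1) change of 4.87 ± 0.52 (SE; limma adjusted p = 0.00362), against 0.79 in Lgals9. Ly9, a SLAM family gene next to Cd244, changed by 3.19 ± 0.63 (SE; limma adjusted p = 0.0157). Slc29a3, a nucleoside transporter gene next to Vsir, changed by 1.43 ± 0.35 (SE; limma adjusted p = 0.0279). Nectin3, a ligand gene of the axis, flanks Cd96 and was not called (limma adjusted p = 0.260).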
